A study of Homo sapiens with 13 samples.

Results

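The regions described here are the ChIP-seq peaks that lie in the zinc finger gene clusters of human chromosome 19. Members were all peaks, from 7 deposited lists, whose midpoint fell in 1 of 4 windows of hg19 chromosome 19. The first window ran from 19800000 to 24500000, the second from 36500000 to 38500000, the third from 44300000 to 45000000 and the fourth from 52000000 to 59128983. Of 136141 peaks in all, 1450 were members, and the rest of chromosome 19 held 6287. The windows took 14.5 Mb, 24.6% of the length of the chromosome.

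ChIP-seq (chromatin immunoprecipitation followed by sequencing) had been done in a human embryonic stem cell line in wide use, H1 (WA01). KO cells carried a homozygous deletion of ZNF263 made with Cas9, and are labelled as a single line. Whether that line is 1 clone is not given in the labels. FLAG ChIP was done in the same KO line with ectopic expression of ZNF263-FLAG, a copy with an epitope tag, whose level relative to the native protein is not given. WT cells were the reference for 3 histone marks, H3K4me3, H3K27ac and H3K27me3. With a single library in each arm (1 per mark and genotype), the genotypes could not be tested against each other, and no difference has a replicate check.

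KRAB zinc finger proteins form the largest family of human transcription factors. They bind DNA through tandem C2H2 fingers, and many bring the corepressor TRIM28 to transposable elements through the KRAB domain. Their genes multiplied by local duplication, which left long runs of neighbours on chromosome 19. ZNF263 is itself a C2H2 zinc finger factor with a KRAB and a SCAN domain, encoded on chromosome 16. H3K4me3 marks promoters that are active or poised. Active enhancers and promoters carry H3K27ac, and chromatin held by Polycomb carries H3K27me3. Promoters that carry H3K4me3 and H3K27me3 together are called bivalent, and in stem cells they are typical of developmental regulators.

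Zinc finger genes were counted by symbol and could be placed only by chromosome, because the RefSeq gene table used here is of another build (GRCh38.p14). There, 250 of 517 protein-coding genes with a ZNF symbol lay on chromosome 19, against 35 on chromosome 7, the next in number. Of these 250, 226 had another ZNF gene as a neighbour among protein-coding genes, and the longest unbroken run held 27. A ZNF symbol does not tell whether a gene encodes a KRAB domain, so the KRAB family itself was not counted. The windows were set by position, so genes of other kinds lie in them too, such as the leukocyte receptor genes of the fourth window. No peak was assigned to a gene, and no sequence is shown, because neither an hg19 annotation nor an hg19 genome was used here.

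The lists give no read counts, so depth is unknown, and the number of peaks called varies with library depth. Scores are the authors' own peak scores, on a scale that the sources do not give, and were compared within a list only. Parentheses hold 95% intervals, which account for the number of peaks counted and nothing else, and which treat peaks as independent. Differences of shares have Newcombe intervals, shares have Wilson intervals, and ratios of numbers have exact binomial intervals.

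The windows held fewer FLAG and fewer H3K27me3 peaks for their length than the rest of chromosome 19, while H3K27ac was about as dense inside as outside. FLAG peaks numbered 15.2 per Mb in the clusters and 36.7 per Mb in the rest of the chromosome, a ratio of 0.414. H3K27me3 peaks numbered 5.37 per Mb in the clusters of KO cells against 9.73 in the rest (ratio 0.552), and in WT cells 6.68 against 12.2 (ratio 0.546). H3K27ac peaks of KO cells numbered 12.3 per Mb in the clusters against 11.3 in the rest, and those of WT cells 13.3 against 13.9. H3K4me3 peaks were somewhat sparser in the clusters, at 23.1 against 27.5 per Mb in KO and 23.9 against 29.6 in WT. The order for H3K4me3 rested on the first window, since without it the ratio of clusters to rest was 1.06 in KO and 1.02 in WT. It was also above 1 when each list was restricted to its upper 50% by score, at 1.07 in KO and 1.04 in WT.

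**Figure D1:**
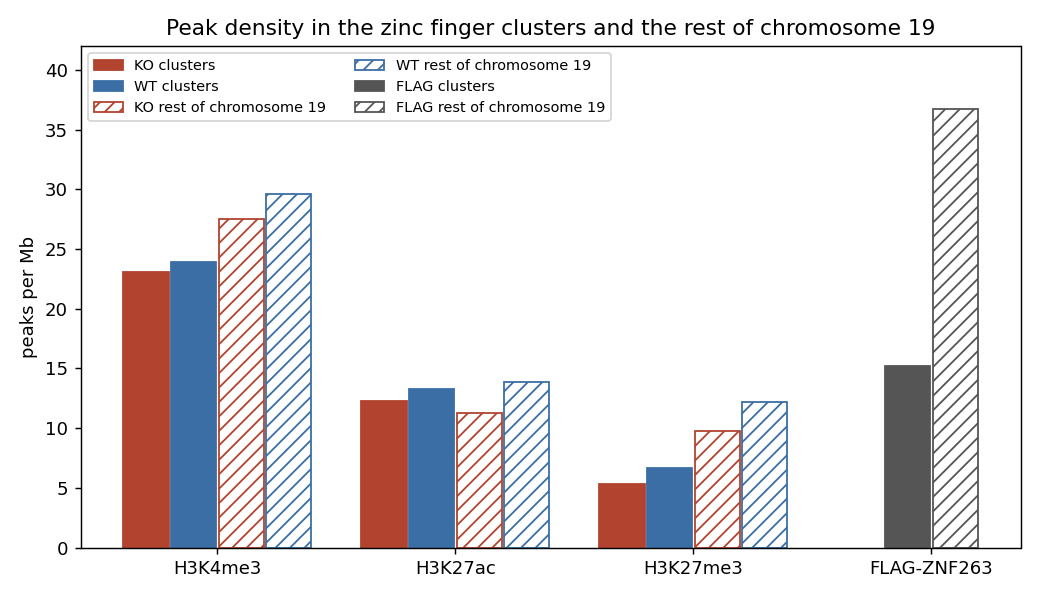
Peaks per Mb (vertical axis) for 3 histone marks and FLAG-ZNF263 (horizontal axis). Filled bars are the clusters and hatched bars the rest of chromosome 19, with KO in red, WT in blue and FLAG in grey; the FLAG density is 15.2 in the clusters and 36.7 in the rest.

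Density differed greatly among the windows. The first window held 10.4 H3K4me3 peaks per Mb in KO and 10.6 in WT, and the fourth held 30.7 in KO and 31.8 in WT. FLAG peaks numbered 13 in the first window (2.77 per Mb), 22 in the second (11 per Mb), 1 in the third (1.43 per Mb) and 185 in the fourth (26 per Mb). The fourth window thus held most of the 221 FLAG members. In the third window, by contrast, H3K4me3 was as dense as in the fourth (30 per Mb in both genotypes), although that window had a single FLAG peak.

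H3K4me3 peaks in the clusters had a narrow range of widths and high scores. In KO cells the 336 members had a median width of 2824 bp with quartiles of 2226 and 3369, against a median of 2662 bp and quartiles of 1964 and 3471 in the rest of the chromosome. In WT cells the 347 members had a median of 2840 bp (quartiles 2212 and 3401), against 2626 bp (1863 and 3435) in the rest. Scores of 3100 or more were found for 58.6% of KO members and 43.4% of the KO rest. In WT they were found for 61.1% of members and 46.5% of the rest. Many members tied at 3100, which was both the median and the upper quartile, and cannot be ranked among themselves. The highest score of a member was 3203 in KO and 3233 in WT. Neighbouring H3K4me3 peaks were a median of 24 kb apart in the clusters of KO cells and 23.9 kb apart in those of WT cells. The median spacing within windows ranged more widely, from 44.2 kb in KO and 44.8 kb in WT in the first window to 20.2 kb in KO and 19.5 kb in WT in the fourth.

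H3K27me3 members were narrow and weak. Their median width was 2282 bp in KO clusters against 3525 bp in the KO rest, and 1953 bp in WT clusters against 2787 bp in the WT rest. Median scores were 92.5 in KO clusters and 308 in the KO rest, and 79.8 in WT clusters and 261 in the WT rest. Only 3 of 78 KO members and 4 of 97 WT members reached a score of 3100. H3K27ac members had scores much like those of the rest, with medians of 139 and 139.9 in KO and 141 and 146 in WT.

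The next question was whether the marks of these regions differed between KO and WT. H3K4me3 numbers were close, with 336 peaks in KO and 347 in WT clusters (ratio 0.968, 0.831 to 1.13), against 1227 and 1318 in the rest of the chromosome (0.931, 0.861 to 1.01). H3K27ac numbered 178 in KO and 193 in WT clusters (0.922, 0.748 to 1.14), against 504 and 621 in the rest (0.812, 0.72 to 0.914). H3K27me3 numbered 78 in KO and 97 in WT clusters (0.804, 0.589 to 1.09), and 434 and 545 in the rest (0.796, 0.7 to 0.905). With both H3K27me3 lists at equal length by score, the ratio in the clusters was 1.11 (0.797 to 1.56), so its direction turned. In the whole genome the ratio was 0.946 for H3K4me3 (0.931 to 0.962), 1 for H3K27ac (0.981 to 1.02) and 0.871 for H3K27me3 (0.849 to 0.895). The lower H3K27ac number of KO in the rest of chromosome 19 was thus not seen genome-wide. For each mark the interval of the clusters included both the ratio of the rest and that of the genome. Covered length of H3K27ac was nearly the same, at 417 kb in KO and 419 kb in WT clusters, and for H3K27me3 it was 230.1 kb in KO and 264 kb in WT.

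Peaks with no peak of the other genotype overlapping by 1 bp were called KO-only or WT-only. Over the whole genome this rule called 7.3% of KO and 12.3% of WT H3K4me3 peaks. In the clusters it called 5 of 336 KO peaks (1.49%, 0.637 to 3.44) and 20 of 347 WT peaks (5.76%, 3.76 to 8.73), below the genome-wide shares, and in the rest of chromosome 19 it called 2.04% of KO and 8.35% of WT peaks. All 5 KO-only and all 20 WT-only H3K4me3 members lay in the lower 50% of their lists by score. Clusters minus rest was -0.549 points for KO-only (-1.83 to 1.5) and -2.58 points for WT-only peaks (-5.16 to 0.691). Both intervals held negative and positive values. H3K4me3 in the clusters was therefore almost wholly shared between genotypes, but not clearly more so than in the rest of the chromosome. Bases covered in both genotypes were 87.1% of those covered in either, against 86.1% in the rest.

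H3K27ac was exclusive more often. Genome-wide, 24.8% of KO and 24.6% of WT H3K27ac peaks were exclusive. In the clusters 26 of 178 KO peaks (14.6%, 10.2 to 20.5) and 40 of 193 WT peaks (20.7%, 15.6 to 27) were. The rest of the chromosome gave 9.92% (7.61 to 12.8) in KO and 25.8% (22.5 to 29.3) in WT. Clusters and rest differed by 4.69 points for KO-only peaks (-0.628 to 11.1) and by -5.04 points for WT-only peaks (-11.3 to 2.03), and both intervals included 0. Of the exclusive H3K27ac members, 21 of 26 KO-only and 34 of 40 WT-only peaks overlapped an H3K4me3 peak of the other genotype. Most were thus a difference in called H3K27ac peaks at a place marked by H3K4me3 in both. This was not particular to exclusive peaks. On H3K4me3 of their own genotype lay 21 of the 26 KO-only and 35 of the 40 WT-only peaks. Of all H3K27ac members, only 11.8% in KO and 10.4% in WT lay off it. The KO-only members scored 65.1 at the median, where shared KO members scored 183. The WT-only members scored 67.7, where shared WT members scored 198, and the lowest score in either list was 40. Whether these weak calls reflect a difference in H3K27ac between genotypes was not tested.

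H3K27me3 was the mark least shared in the clusters. Genome-wide, 11% of KO and 21.6% of WT H3K27me3 peaks were exclusive. In the clusters 22 of 78 KO peaks (28.2%, 19.4 to 39) and 43 of 97 WT peaks (44.33%, 34.8 to 54.2) were, against 9.45% (7.04 to 12.6) of KO and 28.6% (25 to 32.6) of WT peaks in the rest. The differences were 18.8 points for KO-only (9.44 to 29.8) and 15.7 points for WT-only peaks (5.44 to 26.3). These exclusive members were weak. The KO-only ones scored 48.6 at the median, where shared KO members scored 207, and none lay in the upper 50% of the KO list. The WT-only ones scored 56.9 at the median, where shared WT members scored 271, and 1 of the 43 lay in the upper 50% of the WT list. With each list restricted to its upper 50% by score, the KO-only difference turned to -4.17 points and the WT-only difference was 4.3 points. With both lists at equal length by score, the clusters held 27 KO-only and 22 WT-only members, so the larger number was then that of KO, and the differences from the rest were 23.1 points (12.9 to 34.5) and 11.3 points (0.896 to 23.4). Bases covered in both genotypes were 55.4% of those covered in either, against 73.6% in the rest of the chromosome.

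Combinations of marks showed that H3K4me3 peaks in the clusters seldom carried H3K27me3. In KO 44 of 336 H3K4me3 members (13.1%, 9.9 to 17.1) overlapped H3K27me3, against 32.4% (29.9 to 35.1) in the rest, a difference of -19.3 points (-23.5 to -14.6). In WT 60 of 347 (17.3%, 13.7 to 21.6) did, against 37.4% (34.8 to 40.1) in the rest, a difference of -20.1 points (-24.6 to -15.1). H3K27ac without H3K27me3 was more frequent in the clusters, at 45.5% against 33.4% in KO and 47.3% against 35.2% in WT. H3K4me3 alone was also more frequent, at 41.4% against 34.1% in KO and 35.4% against 27.4% in WT. The KO difference of 7.22 points (1.42 to 13.2) was 0.0397 points without the fourth window (-8.37 to 9.38), 5.22 without the third (-0.674 to 11.3) and 12.5 without the first (6.24 to 18.9). All 3 marks met at 3 members in each genotype, 0.893% of KO and 0.865% of WT members, against 2.53% of the KO and 5.16% of the WT rest. The low share with H3K27me3 was kept in the upper 50% of each list (-10.7 points in KO and -10.1 in WT for H3K4me3 with H3K27me3 and no H3K27ac), whereas the excess with H3K27ac was not (2.98 points in KO and -1.79 in WT).

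**Figure D2:**
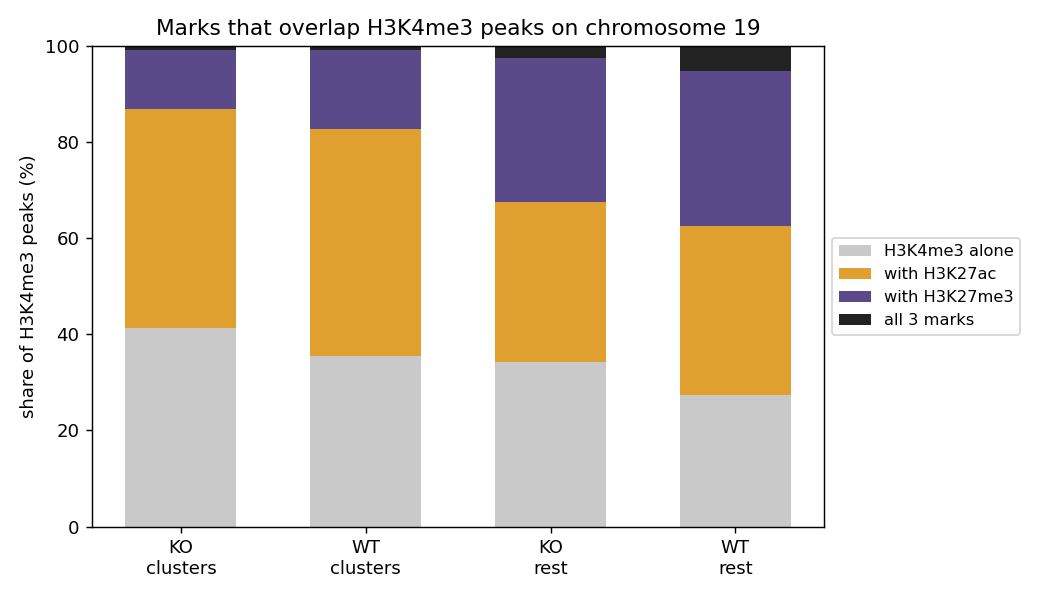
Share of H3K4me3 peaks (vertical axis, %) by the other marks that overlap them, for the clusters and the rest of chromosome 19 in KO and WT. H3K4me3 with H3K27me3 makes up 12.2% of KO and 16.4% of WT peaks in the clusters, against 29.9% and 32.2% in the rest.

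The windows differed in which mark accompanied H3K4me3. In the first window 40 of 49 KO peaks (81.6%, 68.6 to 90.02) and 37 of 50 WT peaks (74%, 60.4 to 84.1) overlapped H3K27ac. The second window had 51.1% in KO and 49% in WT, and the fourth 40.6% in KO and 44.1% in WT. The third was the lowest, with 3 of 21 KO peaks (14.3%, 4.98 to 34.6) and 6 of 21 WT peaks (28.6%, 13.8 to 49.96). The first window exceeded the fourth by 41 points in KO (26.4 to 51.5) and by 29.9 points in WT (14.9 to 41.9). Without the first window, the KO excess of H3K4me3 with H3K27ac over the rest was 5.96 points instead of 12.1. Its interval (-0.142 to 12.3) then included 0, while the WT excess was 7.56 points (1.47 to 13.8). In the fourth window alone, the share with any H3K27ac was not clearly above the rest. It differed by 4.7 points in KO (-2.16 to 11.8) and 3.69 points in WT (-3.16 to 10.7). H3K27me3 at H3K4me3 was below the rest of the chromosome in every window, with the highest share 15.5% in KO and 21.6% in WT, both in the fourth.

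**Figure D3:**
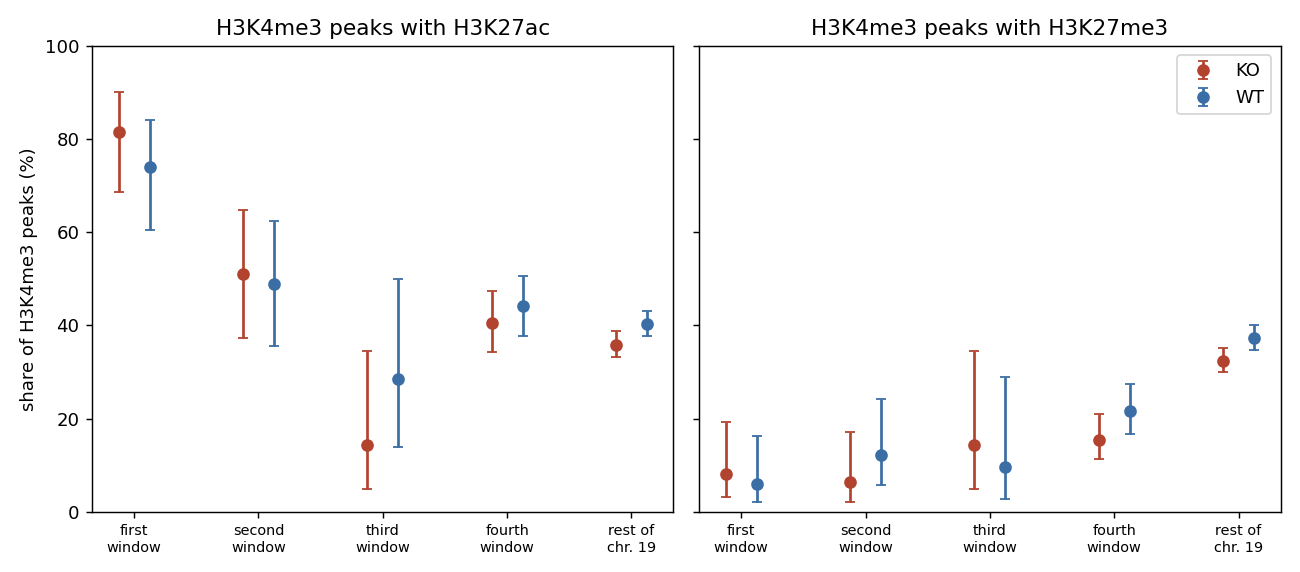
Share of H3K4me3 peaks (vertical axis, %) that overlap H3K27ac (left) or H3K27me3 (right), in each window and the rest of chromosome 19. Points are KO (red) and WT (blue) and bars are Wilson 95% intervals; H3K27ac is highest in the first window, at 81.6% in KO and 74% in WT.

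H3K27ac in the first window numbered 46 peaks in KO and 41 in WT, while in the other 3 windows it numbered 132 in KO and 152 in WT. The ratios were 1.12 (0.72 to 1.75) and 0.868 (0.683 to 1.1), and their intervals overlapped widely. At H3K4me3 peaks found in both genotypes, 4 of 47 in the first window had H3K27ac in KO alone and 0 had it in WT alone. The second window had 4 and 4 of 46, the third 0 and 3 of 21, and the fourth 12 and 25 of 213. Over all windows the numbers were 20 and 32, of 327 such peaks, against 36 and 105 of 1208 in the rest of the chromosome. H3K27ac peaks away from H3K4me3 numbered 21 in KO clusters (11.8%, against 11.5% in the rest) and 20 in WT clusters (10.4%, against 12.9%), and the intervals of both differences included 0.

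The fate of bivalent members was followed from WT to KO. Of the 60 WT H3K4me3 members with H3K27me3, 39 (65%, 52.4 to 75.8) overlapped both marks in KO, against 77.7% (73.8 to 81.1) in the rest of the chromosome and 82.5% in the whole genome. The difference from the rest was -12.7 points (-25.8 to -1.18). Among the 57 that lacked H3K27ac in WT, 12 kept H3K4me3 with neither H3K27 mark in KO, 1 kept it with H3K27ac, 2 had H3K27me3 without H3K4me3, and 5 had none of the 3 marks. In the other direction, 39 of 44 KO members with both marks (88.6%, 76 to 95) overlapped both in WT, against 96% in the rest. With the lists of each mark at equal length the WT share kept in the clusters was 77.1% (63.5 to 86.7). With each list restricted to its upper 50% by score it was 37.5% (18.5 to 61.4). Neither setting was run for the rest of the chromosome, so these values cannot be set against the shares of the rest above.

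H3K4me3 members without H3K27me3 mostly had the same marks in KO as in WT. Of 164 WT members with H3K27ac and no H3K27me3, 129 (78.7%, 71.8 to 84.2) had the same marks in KO and 31 (18.9%) had H3K4me3 alone. Of 123 WT members with H3K4me3 alone, 92 (74.8%) were the same in KO, 18 (14.6%) had H3K27ac as well in KO and 10 (8.13%) had no mark there. H3K27me3 appeared in KO at 3 of these 123.

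ZNF263-FLAG was found at a smaller share of the marked regions in the clusters than in the rest of chromosome 19. In KO 130 of 336 H3K4me3 members (38.7%, 33.6 to 44) held a FLAG peak, against 59.8% (57.1 to 62.5) in the rest, a difference of -21.1 points (-26.9 to -15.1). In WT 133 of 347 (38.3%, 33.4 to 43.5) did, against 58% (55.3 to 60.6), a difference of -19.6 points (-25.3 to -13.8). H3K27ac members held one in 30.3% of KO and 31.1% of WT peaks, against 52.4% and 50.9% in the rest. H3K27me3 members held one in 41% of KO and 45.4% of WT peaks, against 61.5% and 61.1%. Chromosome 19 outside the clusters was itself unusual, since in the whole genome 40.5% of KO and 39.3% of WT H3K4me3 peaks held a FLAG peak. Set against the other autosomes, the clusters differed by -1.59 points for KO (-6.68 to 3.76) and -0.653 points for WT H3K4me3 (-5.65 to 4.6). For H3K27ac that comparison turned the direction, to 7.93 points in KO (1.61 to 15.1) and 4.53 points in WT (-1.62 to 11.4). Among H3K27ac peaks that overlapped H3K4me3 there was no such excess. In KO 33.8% of these held a FLAG peak in the clusters and 34.3% in the whole genome, and in WT 34.7% and 37%. H3K27ac peaks off H3K4me3 made up 11.8% of KO and 10.4% of WT members, against 35% and 29% genome-wide. For H3K27me3 it gave -7.82 points in KO (-18.1 to 3.31) and -3.46 in WT (-13 to 6.48), and both intervals included 0.

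The shortfall against the rest of chromosome 19 lay mainly in 3 of the windows. A FLAG peak was held by 3 of 49 KO H3K4me3 peaks in the first window (6.12%, 2.1 to 16.5) and 3 of 50 in WT (6%, 2.06 to 16.2). The second window had 14 of 47 in KO (29.8%) and 14 of 49 in WT (28.6%), and the third 1 of 21 in each genotype (4.76%, 0.846 to 22.7). The fourth had 112 of 219 in KO (51.1%, 44.6 to 57.7) and 115 of 227 in WT (50.7%, 44.2 to 57.1). The other 3 windows together differed from the rest of the chromosome by -44.4 points in KO (-50.5 to -36.3) and -43 points in WT (-48.9 to -35). The fourth window alone differed by -8.68 points in KO (-15.8 to -1.57) and -7.31 points in WT (-14.3 to -0.33). Its shares were nevertheless above those of the whole genome, 40.5% in KO and 39.3% in WT. H3K4me3 peaks of the first window were sparse, at 10.4 per Mb in KO and 10.6 in WT, and 65.3% of KO and 64% of WT peaks there reached a score of 3100. Whether density or score bears on the FLAG share was not tested.

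**Figure D4:**
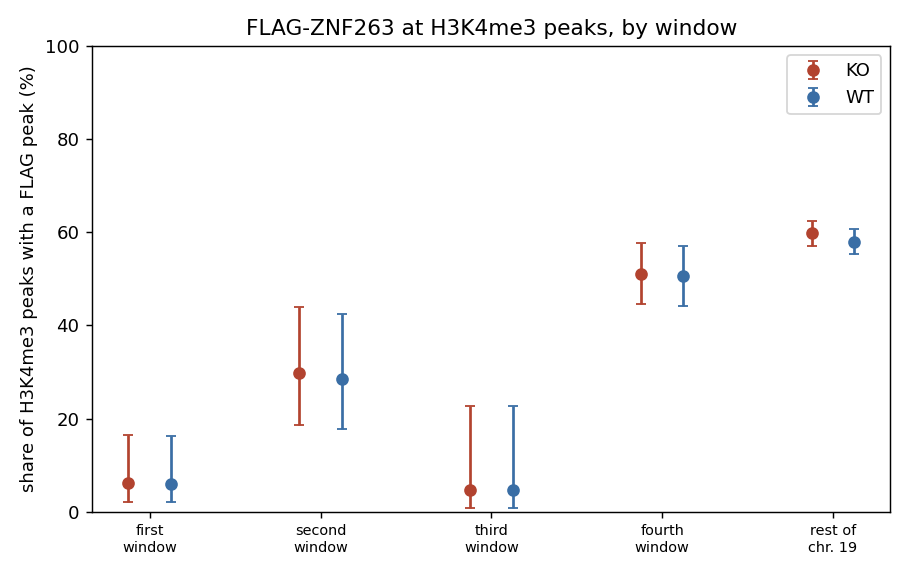
Share of H3K4me3 peaks that hold a FLAG peak (vertical axis, %) in each window and the rest of chromosome 19, for KO (red) and WT (blue) lists. Bars are Wilson 95% intervals; the first window lies at 6.12% in KO and 6% in WT, the third at 4.76% in both, the fourth at 51.1% in KO and 50.7% in WT, and the rest at 59.8% and 58%.

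Within classes of width the direction against the rest of chromosome 19 was the same, but not that against the whole genome. In 4 width classes, cut at the quartiles of the WT H3K4me3 peaks of chromosome 19 (1925, 2673 and 3418 bp), the share with a FLAG peak from narrow to wide was 31.1%, 37.8%, 30.1% and 55.4% in the clusters. In the rest of the chromosome it was 40%, 56.4%, 62.4% and 74.6%. Clusters minus rest was -8.85 points in the narrowest class (-20.3 to 4.54), where the interval included 0, and -32.3 points in the third (-41.6 to -21.7). In the whole genome the shares were 14.6%, 36.4%, 50.3% and 64.2%. The clusters thus lay above the genome in the narrowest class, near it in the second, and below it in the third and the widest. These classes were chosen after the data were seen. By marks, WT members with H3K27ac held FLAG in 35.4% against 55.6% in the rest, and those with H3K4me3 alone in 29.3% against 45.4%. The whole-genome shares of these WT classes were lower than those of the clusters, at 33.4% and 20.9%. Bivalent WT members without H3K27ac were close to the rest, with 37 of 57 (64.9%, 51.9 to 76) against 68.5%, a difference of -3.56 points (-17.2 to 8.43). The KO lists gave 65.9% of 41 such members against 71.9%.

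FLAG peaks that did lie in the clusters were more often on H3K4me3 than those in the rest, by 13.3 points for KO (6.32 to 20.02) and 13.2 points for WT H3K4me3 (6.16 to 19.801). Of the 221 members, 132 (59.7%, 53.1 to 66) overlapped KO and 135 (61.1%, 54.5 to 67.3) WT H3K4me3, against 46.4% and 47.9% of the 1638 FLAG peaks in the rest. KO H3K27ac held 24.9% of members against 16.5% of the rest, and WT H3K27ac 27.1% against 19.2%. With each list restricted to its upper 50% by score, the H3K27ac difference was 2.54 points in KO (-3.68 to 10.7) and turned to -0.507 points in WT (-6.79 to 7.72). FLAG peaks on none of the 6 histone lists numbered 77 (34.8%, 28.9 to 41.3) in the clusters, against 47.7% (45.3 to 50.1) in the rest. These unmarked members had a median score of 70 and lay a median of 8.31 kb from the nearest H3K4me3 peak of either genotype. In the first window 3 of 13 FLAG peaks lay on H3K4me3 (23.1%, 8.18 to 50.3), against 113 of 185 on KO (61.1%) and 116 of 185 on WT H3K4me3 (62.7%) in the fourth. Peak numbers run with 186 gaps in the FLAG list, of which 1 falls between neighbours in the same window.

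On H3K4me3 the FLAG peaks were central. Of the 135 members that overlapped WT H3K4me3, 128 (94.8%) had their midpoint inside the H3K4me3 peak, against 89.4% in the rest. Their midpoints were a median of 343 bp (quartiles 179.5 and 808) from the H3K4me3 midpoint, against 436 bp (160 and 909.5). The FLAG peak was wider than the H3K4me3 peak in 27.4% of pairs in the clusters and in 44.1% in the rest. The midpoint lay toward the higher coordinate in 80 of 135 pairs (59.3%, 50.8 to 67.2), against 54.8% (51.3 to 58.2) in the rest, and these intervals overlapped.

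**Figure D5:**
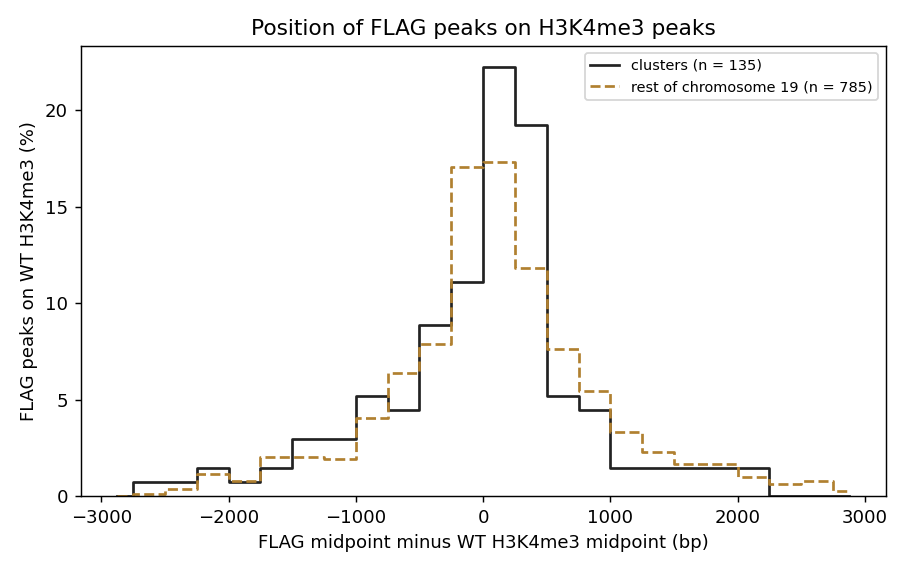
Distance in bp from the midpoint of the WT H3K4me3 peak to the midpoint of the FLAG peak on it (horizontal axis, bins of 250 bp), as a share of such FLAG peaks (vertical axis, %). The 135 pairs of the clusters and the 785 of the rest both centre near 0, and 1 and 18 pairs beyond 3000 bp are not drawn.

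KO to WT ratios with and without a FLAG peak had overlapping intervals inside the clusters. H3K27ac members with a FLAG peak numbered 54 in KO and 60 in WT (ratio 0.9, 0.611 to 1.32), and those without one 124 and 133 (0.932, 0.724 to 1.2). In the rest of the chromosome the ratios were 0.835 with and 0.787 without a FLAG peak. H3K27me3 members with a FLAG peak numbered 32 in KO and 44 in WT (0.727, 0.446 to 1.17), and those without one 46 and 53 (0.868, 0.572 to 1.31). Among exclusive H3K27me3 members, a FLAG peak was held by 1 of 22 KO-only (4.55%, 0.807 to 21.8) and 11 of 43 WT-only peaks (25.6%, 14.9 to 40.2). Shared KO members held one in 55.4% and shared WT members in 61.1%. The KO-only peaks had a median width of 1364 bp, where shared KO members had 2776 bp. For WT-only peaks it was 1472 bp, where shared WT members had 2832 bp. Only 4 of the 22 KO-only and 17 of the 43 WT-only peaks lay on H3K4me3 of their own genotype. Whether width or H3K4me3 accounts for the lower FLAG share was not tested. For H3K27ac, a FLAG peak was held by 6 of 26 KO-only (23.1%, 11 to 42.1) and 11 of 40 WT-only members (27.5%, 16.1 to 42.8). Of shared H3K27ac members, 31.6% in KO (24.7 to 39.3) and 32% in WT (25.2 to 39.8) held one. At H3K4me3 peaks of both genotypes, H3K27me3 was present in WT and not in KO at 14 members, 10 of them with a FLAG peak, and present in KO and not in WT at 4, of which 1 had one. The rest of the chromosome had 86 of the first kind, 58 with a FLAG peak, and 12 of the second, 9 with one. Of all H3K4me3 peaks with H3K27me3 and no H3K27ac, a FLAG peak was held by 64.9% of WT members and 68.5% of the WT rest. In KO these shares were 65.9% and 71.9%.

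The 5 FLAG members with the largest scores all overlapped H3K4me3 in both genotypes. The first, chromosome 19 at 52190531 to 52199274, was 8744 bp wide with a score of 2576 and ranked 3 in the whole FLAG list. The KO H3K4me3 peak there spanned 52190045 to 52196000 and the WT peak 52190169 to 52196090, and the FLAG peak ran past both at its higher end. A KO H3K27ac peak of 1817 bp lay at 52193161 to 52194977, with a low score of 81.8, and WT had none. The next FLAG members had far lower scores, between 616 and 645. The one at 55794368 to 55797445 (score 645) carried H3K27ac in both genotypes, and that at 55877830 to 55883032 (632) carried H3K27me3 in both. At 36522553 to 36525233 (621), in the second window, no mark other than H3K4me3 was present. At 55992237 to 55999346 (616), a WT H3K27ac peak with a score of 51 had no KO counterpart.

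A short stretch of the fourth window held the strongest Polycomb domains. The 4 WT H3K27me3 members with a score of 3100 lay at 55949036 to 55959647, 55861986 to 55870417, 55877297 to 55884740 and 55960094 to 55964659. All 4 overlapped H3K27me3 and H3K4me3 in KO, and all 4 overlapped a FLAG peak. That was common there, since 15 of the 16 WT H3K27me3 peaks between 55 and 56 Mb held one. For the domain at 55861986 the FLAG peak, at 55869945 to 55871546, lay across its higher edge and off its H3K4me3 peaks. The fifth in score, 2370, was a 10129 bp domain of the first window at 20475237 to 20485365, with no FLAG peak. In KO this domain was listed as 2 H3K27me3 peaks of 3504 and 6699 bp that nearly touched, and a weak KO-only H3K4me3 peak (score 90.7) lay across their junction.

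In bins of 1 Mb along the fourth window, the stretch from 55 to 56 Mb stood out. It held 48 of the 185 FLAG peaks of that window, and 27 of its 34 WT H3K4me3 peaks (79.4%, 63.2 to 89.7) held one. From 57 to 58 Mb, 3 of 17 did (17.6%, 6.19 to 41), and from 58 to 59 Mb 17 of 47 (36.2%, 24 to 50.5). Bivalent H3K4me3 peaks numbered 11 in KO and 13 in WT between 55 and 56 Mb. They numbered 8 in KO and 13 in WT between 53 and 54 Mb, and 4 in KO and 7 in WT between 58 and 59 Mb. Between 54 and 55 Mb there were 8 in each genotype, and between 57 and 58 Mb 1 in each. The members of the fourth window were thus a mixed set by place, and these bins were chosen after the data were seen.

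Exclusive members of largest score lay between 0.113 and 182 kb from the nearest peak of the same mark in the other genotype. Among WT-only H3K4me3 members the highest, at 54056637 to 54058395 (score 788), held a FLAG peak of score 59.7 and lay 13.9 kb from the nearest KO H3K4me3 peak. The next, at 36911743 to 36913422 (score 717), lay 1.24 kb from the nearest KO H3K4me3 peak. It was inside the WT-only H3K27me3 member of largest score, at 36909609 to 36913661 (690.2), 182 kb from the nearest KO H3K27me3 peak. That region also touched an H3K4me3 peak with H3K27ac in both genotypes at its lower edge, and that H3K4me3 peak was 1 of the 3 WT members with all 3 marks. The third WT-only H3K4me3 peak, at 56987770 to 56990598 (score 621), had neither H3K27 mark and no FLAG peak. At 59072901 to 59075636, near the end of the chromosome, a WT-only H3K27me3 peak (score 215) overlapped a WT H3K4me3 peak, and KO had neither mark. The third WT-only H3K27me3 peak, at 55929276 to 55931661 (score 169), had no H3K4me3 in either genotype and overlapped a FLAG peak.

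Among KO-only members, the H3K4me3 peak of largest score, at 57742157 to 57743937 (99.1), coincided with a FLAG peak of score 93.5 and lay 6.64 kb from the nearest WT H3K4me3 peak. The KO-only H3K27ac peaks at 24260032 to 24262642 (score 170.5), 53465218 to 53467371 (122) and 58257474 to 58259165 (112) all lay on H3K4me3 peaks of both genotypes and held no FLAG peak. The first of these was 1.21 kb from a WT H3K27ac peak. The same was true of the 3 highest WT-only H3K27ac peaks, at 56878763 to 56880705 (287), 37063181 to 37065159 (176) and 44438518 to 44440182 (155). Of the 3 highest KO-only H3K27me3 peaks none held a FLAG peak. The first of them, at 52618008 to 52619443 (81.9), lay 0.113 kb from a WT H3K27me3 peak.

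The broadest H3K4me3 members were all in the fourth window and present in both genotypes. The widest WT peak, 9074 bp at 54703375 to 54712448, carried H3K27ac in both genotypes and no FLAG peak, and its KO counterpart was 8391 bp. The next ones, at 54459579 to 54467740 (8162 bp), 59064372 to 59072241 (7870 bp), 55893748 to 55901603 (7856 bp) and 52404195 to 52411910 (7716 bp), each held a FLAG peak. Of these only the peak at 55893748 had H3K27ac in WT (score 108) and none in KO. With WT peaks up to 3 kb apart merged, the widest domain spanned 25507 bp at 56145234 to 56170740, took in 4 H3K4me3 peaks and held 2 FLAG peaks, of scores 155 and 98.2. Both FLAG peaks there lay on WT H3K27ac, and the one at 56151061 to 56153258 lay on KO H3K27ac as well.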

How the data were processed

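Peak lists of 6 histone libraries and 1 FLAG library were analysed. Of the 13 samples, the 2 endogenous ZNF263 libraries and the 4 inputs were not analysed here. The endogenous libraries' labels name the FLAG list too, and it is unstated whether reads of theirs were used for it. Groups came from the sample titles. Bowtie2, Picard and hg19 are named in the submitters' processing notes, without versions. The deposited lists have no header, and their peak names begin with MACS. The deposited score column holds the authors' score for each peak, from 40 (H3K27ac, H3K27me3) or 50 (H3K4me3, FLAG) upward. The caller's version, the input and any pooling are not given in the sources.

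Starts are counted from 1. A peak was shared when it overlapped another by at least 1 bp. Shares, intervals and medians were computed with scipy 1.17.1, pandas 2.3.3 and numpy 2.4.6 under python 3.11.15. For plotting, matplotlib 3.10.9 was used. The overlap step was tested on simulated data. The members and comparisons were chosen with earlier results of these data known. Regions named were the 5 FLAG peaks of largest score, the 3 exclusive peaks of largest score per mark and genotype, the 5 widest WT H3K4me3 and 5 highest WT H3K27me3 peaks, WT peaks with all 3 marks, and FLAG peaks in the widest merged H3K4me3 domain.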

Additional observations from a re-analysis of the deposited data

How the results depend on the processing

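Of 442 alternative values for 43 results, 363 stayed within 1.5 times the count reported or within its interval, 70 moved beyond it and 9 reversed. Requiring 50% of the smaller peak to overlap, allowing gaps of 1 kb, membership by any overlap with a window, and leaving out the second or the third window moved none of the results they were run on beyond those limits, although without the third window the interval of the KO excess of H3K4me3 alone included 0. Bins of 100 kb that held a peak moved no density ratio. No paired analysis was possible because each arm held 1 library. Depth is unknown and bounds every count. Density against the other autosomes was not run, since no hg19 chromosome lengths were used. The cause of each change below was not tested, except where shorter lists or fewer windows lower a count by construction.

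With each list restricted to its upper 50% by score, KO-only and WT-only members numbered 0 and 12 for H3K4me3 and 0 and 7 for H3K27me3, and WT-only H3K27ac members 21. Clusters minus rest became -4.17 points for KO-only (reversed) and 4.3 for WT-only H3K27me3, both with intervals that included 0. For H3K4me3 with H3K27ac it became 2.98 in KO and -1.79 in WT (reversed), with H3K27me3 -10.7 in KO and -10.1 in WT, and with all 3 marks -1.48 in WT. Bivalent WT members kept in KO were 37.5%. The FLAG share differed by -26.1 points for WT H3K4me3 and -2.13 for WT H3K27me3. FLAG peaks on H3K27ac differed by 2.54 points in KO and -0.507 in WT (reversed). Density ratios reversed for H3K4me3, to 1.07 in KO and 1.04 in WT, and were 0.298 in KO and 0.32 in WT for H3K27me3. Against the complete other list, a comparison chosen after the data were seen, these strong peaks left 0 KO-only and 0 WT-only H3K4me3, 3 and 7 H3K27ac, and 0 and 1 H3K27me3 members.

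Without the first window, KO H3K4me3 with H3K27ac exceeded the rest by 5.96 points, with an interval that included 0 (-0.142 to 12.3). H3K4me3 density ratios reversed to 1.06 in KO and 1.02 in WT, and the ratio was 0.708 for WT H3K27me3 and 0.576 for FLAG. Without the fourth window, which held most members, there were 1 KO-only and 6 WT-only H3K4me3, 10 and 9 H3K27ac, and 11 and 14 H3K27me3 members. Clusters minus rest was then -13.6 points for WT-only H3K27ac, 42.9 for KO-only and 32.2 for WT-only H3K27me3. H3K4me3 alone in KO gave 0.0397, H3K4me3 with H3K27ac 23.9 in KO and 19.795 in WT, and with H3K27me3 -23.9 in WT. FLAG shares differed by -44.4 (KO) and -43 (WT) points at H3K4me3, -40.4 and -36 at H3K27ac, and -47.2 and -43.7 at H3K27me3. FLAG peaks on WT H3K4me3 differed by 4.85 points, on KO H3K27me3 by -11.9 and on WT H3K27me3 by -12.8. Density ratios were 0.575 (KO) and 0.549 (WT) for H3K4me3, 0.897 and 0.718 for H3K27ac, 0.292 and 0.254 for H3K27me3, and 0.132 for FLAG. The fourth window alone, added after the data were seen, gave FLAG share differences of -8.68 (KO) and -7.31 (WT) points for H3K4me3 and -8.69 and -9.71 for H3K27ac.

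Lists of a mark at equal length gave a KO to WT ratio of 1.11 for H3K27me3, 22 WT-only H3K27me3 members and 77.1% of bivalent WT members kept. Merging peaks up to 3 kb apart left 11 WT-only H3K4me3 members. Against the other autosomes, exclusive shares differed by -6.15 points for KO-only and -7.04 for WT-only H3K4me3 and -11 for KO-only H3K27ac. FLAG shares then differed by -1.59 (KO) and -0.653 (WT) points for H3K4me3, by 7.93 and 4.53 for H3K27ac (both reversed), and by -7.82 and -3.46 for H3K27me3, and FLAG peaks on KO H3K27me3 by -10.7.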
